A study of Mus musculus with 36 samples.

Results

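The 31 genes described here keep and express the mitochondrial genome: they copy mitochondrial DNA, transcribe it, supply its nucleotides, process its RNA, or regulate the nuclear genes that do so. They were chosen by name, as genes of these functions, and all 31 were found among the 21968 genes of the count table. Their levels were measured in 36 single mouse oocytes at the germinal vesicle stage, that is, oocytes held in prophase of the first meiotic division. By their labels, 18 oocytes came from 4 mice of genotype Drp1_KO (mice a to d) and 18 from 5 mice of genotype Drp1_WT (mice 1 to 5), with 3 to 5 oocytes a mouse. Dnm1l encodes Drp1, a GTPase of the dynamin family that cuts mitochondria in fission. The series title places the depletion in the oocyte, and the labels used here give no allele, Cre driver, strain or age, and no treatment of either group.

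Mitochondrial DNA is a small circular genome present in many copies in each cell, and the oocyte holds far more copies than other cells and passes them to the embryo. It is copied by the polymerase Polg with its accessory subunit Polg2, the helicase Twnk and the single-strand binding protein Ssbp1. It is transcribed by Polrmt with Tfam, which also packs the DNA, and Tfb2m. The long transcripts are then cut. The resulting RNAs are given tails by Mtpap, held stable by the pair Lrpprc and Slirp, and broken down by Pnpt1 with the helicase Supv3l1. All of these proteins are encoded in the nucleus, and the regulators Nrf1, Gabpa with Gabpb1, and the Ppargc1 coactivators act on their genes in many tissues.

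Promoter sequences show a feature that many of the core replication and transcription genes share. Of the 31 genes, 25 were matched by symbol to the RefSeq promoter set (GRCm38.p6, 250 bases before to 50 bases after the start of transcription). The letters CCGGAAG, or CTTCCGG on the other strand, are those bound by ETS factors such as the Gabpa and Gabpb1 complex, and 11 of the 25 promoters (44%) held them, against 9.93% of the promoters of 27025 genes. These were the promoters of Tfam, Polg, Polg2, Twnk, Polrmt, Gabpa, Ssbp1, Tefm, Mterf4, Tk2 and Slirp. The shorter letters CCGGAA, which every CCGGAAG match contains, were in 13 (52%) against 16.7% of all genes. The full NRF1 palindrome, GCGCA directly followed by TGCGC, was in 0 of the 25, against 1.07% of all genes, and its arm GCGCA or TGCGC was in 13 (52%), against 32.9%. A match is a description of the letters in the window and not a measured binding site. Below are the 100 bases upstream of 4 core genes, each on the strand of its gene, with the match in capitals. They are shown at this length because no exon annotated in GENCODE M21 overlaps them. In the other members with a match in the same 100 bases an annotated exon does.
Polrmt, chr10:79746582-79746681, minus strand: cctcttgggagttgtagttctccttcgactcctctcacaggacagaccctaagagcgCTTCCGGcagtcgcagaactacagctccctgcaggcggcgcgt
Twnk, chr19:45006458-45006557, plus strand: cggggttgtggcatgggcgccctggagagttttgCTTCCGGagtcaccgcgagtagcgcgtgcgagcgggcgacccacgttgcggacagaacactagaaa
Tk2, chr8:104248559-104248658, minus strand: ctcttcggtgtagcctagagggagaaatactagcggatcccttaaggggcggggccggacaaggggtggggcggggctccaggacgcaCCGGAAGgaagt
Polg2, chr11:106779538-106779637, minus strand: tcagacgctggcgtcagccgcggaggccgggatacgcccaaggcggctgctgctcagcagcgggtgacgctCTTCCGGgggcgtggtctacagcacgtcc
The match began 43 bases before the start in Polrmt, 66 in Twnk, 12 in Tk2 and 29 in Polg2, and Twnk held another match that began 110 bases before it. For the other core genes only the match and its flanks are given, again on the strand of the gene.
Tfam, chr10:71238074-71238102, minus strand: cctgccgcggaCCGGAAGtccgggcttcc
Polg, chr7:79466294-79466322, minus strand: gaggacctcacCCGGAAGtccctctgcac
Ssbp1, chr6:40471410-40471438, plus strand: ggctccgtgcgCCGGAAGcgagccgctgg
Slirp, chr12:87443837-87443865, plus strand: aacagtttggcCCGGAAGcagaactcgaa
Gabpa, chr16:84835020-84835048, plus strand: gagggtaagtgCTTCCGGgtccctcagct
The match shown began 47 bases before the start in both Tfam and Ssbp1, 38 in Polg, 48 in Slirp and 93 in Gabpa. Slirp held 2 other matches, which began 146 and 11 bases before the start. Gabpa itself encodes the DNA-binding subunit of the complex that binds these letters.

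Totals ran from 3178509 to 7406895 counts a library, with 11350 to 14659 genes detected. In 35 libraries the 14 oocyte markers, among them Zp3 and Gdf9, summed to between 25248 and 40473 CPM (counts scaled to the same total in each library), and 16 granulosa and cumulus markers to between 84.1 and 158 CPM. Libraries that stood apart are named here because results below rest on them. Tube 10 of mouse b, labelled Drp1_KO, had 15597 CPM of oocyte markers, of which Dppa3 and Oosp1 made up 90.4%. The other 12 were each at their lowest there and summed to 1503 CPM, against 19234 to 34067 CPM elsewhere, with Zp3 at 13.5 CPM, Gdf9 at 126 CPM and Figla at 0. That library also had 664 CPM of immune markers against at most 118 CPM elsewhere and 5.61% of its counts in the 13 mitochondrial genome genes against 0.140% to 0.669% elsewhere. In it 8 of the 10 immune markers had a count, with Lyz2, the macrophage lysozyme, at 440 CPM, and Cd14 and Cd3e were at 0. Tubes 11 to 15 of mice 3 and 4, labelled Drp1_WT, had 116 to 156 CPM of Dnm1l, below the 234 to 322 CPM of the other 13 libraries labelled Drp1_WT. Libraries labelled Drp1_KO had 144 to 251 CPM, and tube 10 of mouse b 274 CPM. Tubes 11, 12 and 14, at 134, 116 and 118 CPM, lay below every library labelled Drp1_KO. Tubes 13 and 15, at 151 and 156 CPM, lay inside that range. Whether the labels of tubes 11 to 15 are right was not tested. Tube 29 of mouse 5 had the highest sum of oocyte markers, 40473 CPM. Each comparison below is therefore between libraries as labelled. Nothing says whether mice were littermates or were handled on the same day, so p-values measure only the spread between these mice.

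The members together made up a nearly constant part of each oocyte's RNA. Their summed level was 1726 to 1940 CPM, with a median of 1857, in 17 oocytes labelled Drp1_KO and 1740 to 1994 CPM, with a median of 1892, in the 18 labelled Drp1_WT. These ranges overlap over most of their length. Mtpap and Mterf4, with means of 377 and 304 CPM over the mice, were the largest parts of the sum. Tube 10 of mouse b, at 1457 CPM, lay below every other library. Of the 31 members, 29 to 31 had a count in each of the other 35 oocytes, and 25 in tube 10.

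**Figure D1:**
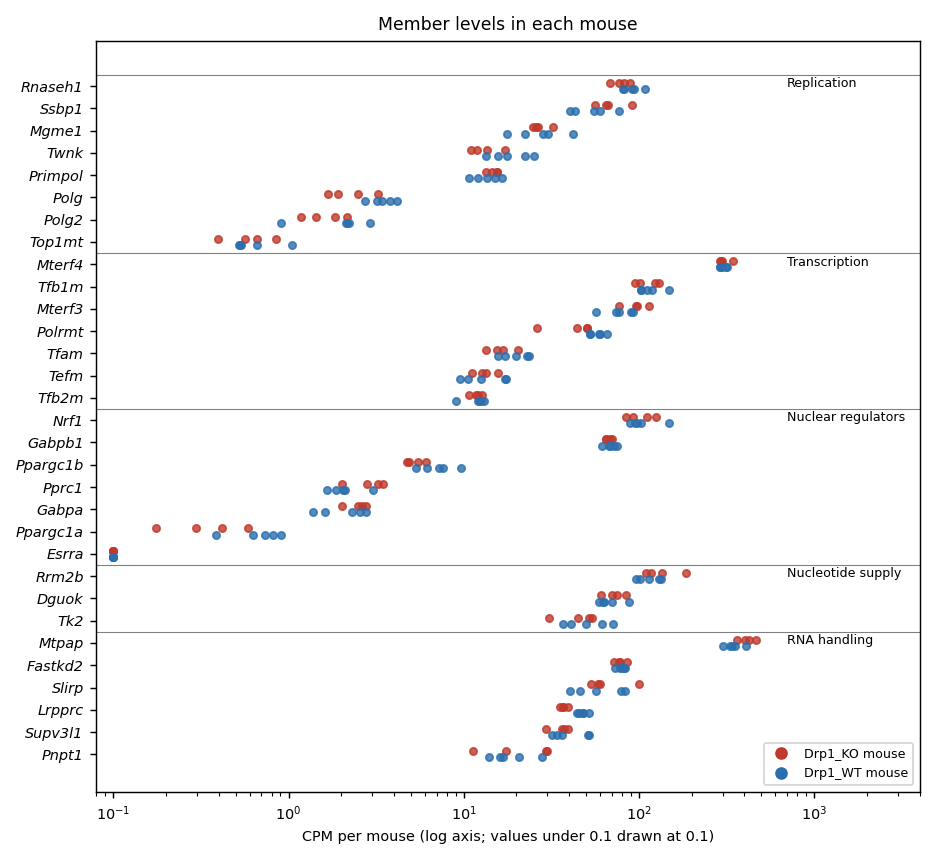
Level of each of the 31 members in each mouse, in CPM on a log axis, grouped by role; red points are the 4 Drp1_KO mice and blue points the 5 Drp1_WT mice. Mtpap and Mterf4 lie near 300 to 470 CPM, while Polg, Polg2, Top1mt, Ppargc1a, Pprc1 and Gabpa lie under 5 CPM, and Esrra is drawn at the floor.

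Levels of different genes were compared only per kb of exon, as CPM per kb averaged over the 9 mice. Mtpap, the poly(A) polymerase of mitochondria, was highest at 60.8 ± 8.41 CPM per kb (SD, n = 9). Mterf4, which guides an rRNA methyltransferase to the mitochondrial ribosome, followed at 57.7 ± 3.58 CPM per kb. These levels did not differ by more than their spread over mice, and with the length of the principal transcript in place of all exons Mterf4 came first, at 223 against 142 CPM per kb.

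Rnaseh1, which removes RNA primers from DNA, stood at 33.2 ± 4.29 CPM per kb and Tfb1m, which methylates the small mitochondrial rRNA, at 31.8 ± 4.66 CPM per kb (SD, n = 9). Slirp, at 20.7 ± 6.25 CPM per kb, and Mterf3, a repressor of mitochondrial transcription, at 17.6 ± 3.41 CPM per kb, completed the 6 highest. Within each of these pairs the difference was smaller than the SD. With the longest transcript as length, 5 of these 6 remained among the 6 highest, and Slirp was at rank 9.

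The DNA polymerase subunit Polg was near the bottom of the order, at 0.275 ± 0.0769 CPM per kb (SD, n = 9), although Twnk, its helicase, stood at 4.10 ± 1.19 CPM per kb and Ssbp1 at 7.38 ± 1.90 CPM per kb. Transcription factors of the mitochondrial genome were in between, with Polrmt at 10.9 ± 2.41, Tfb2m at 4.21 ± 0.437 and Tfam at 4.14 ± 0.796 CPM per kb. Tfam, Tfb2m and Twnk did not differ by more than their spread. Polg had a count in 34 of 36 oocytes, Top1mt, a mitochondrial topoisomerase, in 30, and Polg2, Pprc1 and Tefm in 35.

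The coactivators that are known to drive mitochondrial biogenesis were among the lowest members. Ppargc1a, the coactivator known as PGC-1 alpha, had 0.083 ± 0.038 CPM per kb and a count in 29 of 36 oocytes, whereas its relative Ppargc1b had 1.59 ± 0.397 CPM per kb (SD, n = 9) and a count in all 36. Esrra, the nuclear receptor that these coactivators bind, had 0 counts in the Drp1_KO oocytes, which allows a level of up to 0.0293 CPM over their 102342311 counts, and 2 counts, in a single library, among the Drp1_WT oocytes. Gabpa, at 0.402 ± 0.0894 CPM per kb, was far below its partner Gabpb1 at 8.78 ± 0.532 CPM per kb. Nrf1, nuclear respiratory factor 1, was at 10.2 ± 2.01 CPM per kb, the highest of the regulators, and its level exceeded that of Gabpb1 by less than its SD.

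The kits did not keep the strand of the RNA, so reads of overlapping genes cannot be told apart. In GENCODE M21, Polg overlaps Fanci, Twnk overlaps Mrpl43, Polg2 overlaps Milr1, Tfb1m overlaps Tiam2, Mterf4 overlaps Sned1, Slirp overlaps Alkbh1 and Snw1, and Gabpa overlaps Atp5j. Likewise Pprc1 overlaps Ldb1, Esrra overlaps Trmt112, Mgme1 overlaps Snx5, Mterf3 overlaps Ptdss1, Primpol overlaps Cenpu and Supv3l1 overlaps 4930507D05Rik. Tfam, Polrmt, Ssbp1, Tk2, Dguok, Rnaseh1, Lrpprc, Pnpt1 and Fastkd2 overlap no protein-coding gene on the other strand.

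The first comparison asked whether any of these genes differed between the labels Drp1_KO and Drp1_WT. It was fitted on counts summed per mouse with edgeR, 4 mice against 5, and of the 31 members all but Esrra had enough counts to test. After Benjamini-Hochberg adjustment over 12812 genes, 0 of the 30 members passed 0.05, beside 2 genes (0.0156%) of all those tested. DESeq2 called 0 members and 37 genes (0.256%), limma-voom on oocytes 0 members and 10 genes (0.0781%), and limma-trend 0 members and 2 genes. At an unadjusted p under 0.05, edgeR placed 1 member higher (Mtpap) and 5 lower (Lrpprc, Polrmt, Twnk, Polg and Ppargc1b), which is 6 of 30 beside 9.69% of all genes, 4.89% higher and 4.81% lower. Over the members 11 fold changes were positive and 19 negative, with a median log2 fold change of -0.04 beside -0.00 over all genes. Without tubes 11 to 15, 0 members were higher and 1 lower at an unadjusted p under 0.05, beside 349 and 388 of 12622 genes. Without tube 10 of mouse b the members were 0 and 5, beside 485 and 609 of 12806 genes. In the fit with all libraries, 626 and 616 of the 12812 genes were higher and lower.

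Lrpprc (chromosome 17, 84705247 to 84790789, GRCm38), the RNA-binding protein that keeps mitochondrial mRNAs stable, had the smallest p. Its level was 36.7, 39.5, 36.9 and 35.6 CPM in mice a, b, c and d, and 52.1, 44.3, 45.3, 47.8 and 48.2 CPM in mice 1 to 5. The highest of the Drp1_KO mice, b, was still under the lowest of the Drp1_WT mice, 2. The means were 37.2 ± 1.67 (SD, n = 4) and 47.5 ± 3.06 CPM (SD, n = 5). This is a log2 fold change of -0.35 (SE 0.10, edgeR p = 0.00428, adjusted p = 0.471). Single oocytes overlapped, with a lowest, median and highest level of 8.58, 38.4 and 51.6 CPM against 37.3, 45.9 and 72.6 CPM, the lowest being tube 10. The adjusted p was 0.0753 with DESeq2.

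Polrmt (chromosome 10, 79736123 to 79746581, GRCm38), the RNA polymerase of mitochondria, was the other member whose mice did not overlap. It stood at 44.2, 26.2, 50.8 and 50.5 CPM in mice a to d and at 52.9, 52.4, 65.7, 59.9 and 58.8 CPM in mice 1 to 5. The highest Drp1_KO mouse was only slightly below the lowest Drp1_WT mouse, and mouse b, which holds tube 10, was the lowest. The means were 42.9 ± 11.6 (SD, n = 4) and 57.9 ± 5.48 CPM (SD, n = 5). On the log2 scale the fold change was -0.43 (SE 0.17, edgeR p = 0.0269, adjusted p = 0.499). Single oocytes ran from 0.204 to 71.2 CPM (median 42.4) and from 37.4 to 88.9 CPM (median 57.1). Without tube 10, mouse b stood at 29.5 CPM and the log2 fold change was -0.41. The count of members with no overlap between mice was 2 of 30, beside 2.56% of all genes tested, and both stayed apart without tube 10 and without tubes 11 to 15.

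**Figure D2:**
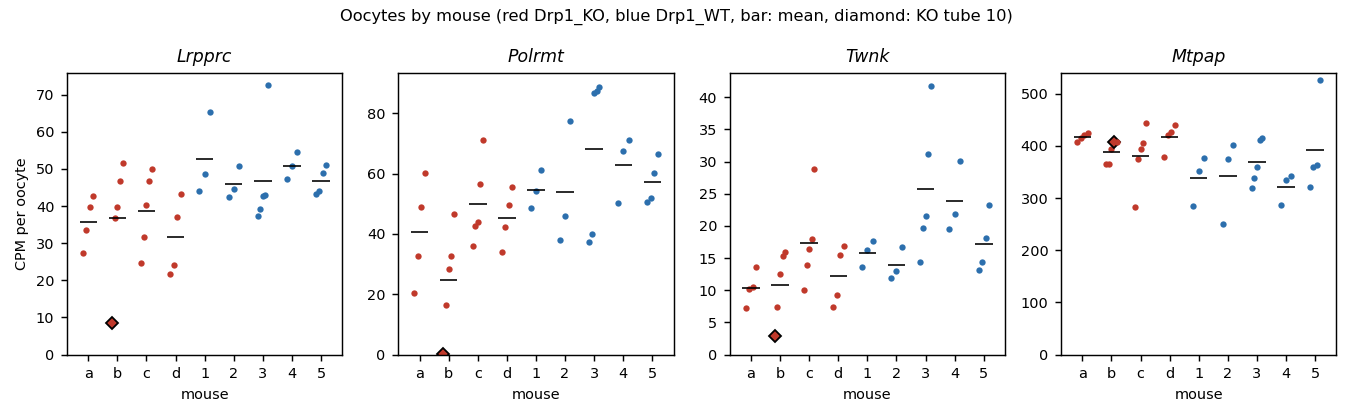
Level of Lrpprc, Polrmt, Twnk and Mtpap in each oocyte, in CPM, by mouse; red is Drp1_KO, blue is Drp1_WT, bars are means of a mouse and the diamond is tube 10 of mouse b. Oocytes of the labels overlap in all 4 genes, and tube 10 is the lowest library for Lrpprc, Polrmt and Twnk and inside the range for Mtpap.

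For Twnk, the helicase that opens mitochondrial DNA for copying, the mice overlapped. Mice a to d had 11.04, 11.9, 17.2 and 13.6 CPM and mice 1 to 5 had 15.6, 13.4, 25.3, 22.3 and 17.6 CPM, so that mice 3 and 4 stood highest. The means were 13.5 ± 2.72 (SD, n = 4) and 18.8 ± 4.89 CPM (SD, n = 5). Their log2 fold change was -0.49 (SE 0.20, edgeR p = 0.0302, adjusted p = 0.501). Mice 3 and 4 hold tubes 11 to 15, whose oocytes had 19.6 to 41.8 CPM against 11.9 to 23.3 CPM in the other 13 Drp1_WT oocytes. Without those tubes the log2 fold change was -0.30, with an adjusted p of 0.891.

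Tfam, which packs and transcribes mitochondrial DNA, was high in some of the same tubes. Its levels were 15.4, 16.8, 20.5 and 13.3 CPM in mice a to d and 19.8, 15.6, 23.1, 23.5 and 17.2 CPM in mice 1 to 5. The labels overlapped, with means of 16.5 ± 3.00 (SD, n = 4) and 19.8 ± 3.48 CPM (SD, n = 5). The log2 fold change was -0.26 (SE 0.17, edgeR p = 0.138, adjusted p = 0.583). Tubes 11 to 15 had 14.7 to 47.9 CPM, with a median of 36.5, against 10.3 to 21.3 CPM, with a median of 18.0, in the other Drp1_WT oocytes. Tubes 11, 12 and 13 had 36.5, 39.9 and 47.9 CPM, whereas tubes 14 and 15 had 14.9 and 14.7 CPM, inside the range of the others. Without tubes 11 to 15 the log2 fold change was -0.02 (adjusted p = 0.992). What sets these 5 libraries apart, beyond their Dnm1l level, was not tested.

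Polg, the catalytic subunit of the polymerase, had few counts in any oocyte. Mice a to d had 1.92, 2.50, 3.23 and 1.67 CPM and mice 1 to 5 had 4.15, 2.73, 3.42, 3.2 and 3.79 CPM. Mouse c overlapped with mice 2 and 4, and the other Drp1_KO mice lay below all Drp1_WT mice. The means were 2.33 ± 0.695 (SD, n = 4) and 3.46 ± 0.546 CPM (SD, n = 5). Expressed as a log2 fold change, the difference was -0.56 (SE 0.24, edgeR p = 0.0357, adjusted p = 0.508). Its partner Polg2 had 1.65 ± 0.434 and 2.07 ± 0.728 CPM, with a log2 fold change of -0.33 (SE 0.32, adjusted p = 0.718).

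Ppargc1b, the more abundant of the PGC-1 coactivators, stood at 5.45, 4.73, 6.07 and 4.87 CPM in mice a to d and at 9.63, 6.16, 7.27, 7.65 and 5.32 CPM in mice 1 to 5. Mouse 5 lay among the Drp1_KO mice and mouse 1 was the highest. The log2 fold change was -0.45 (SE 0.19, edgeR p = 0.0394, adjusted p = 0.508). Ppargc1a had the widest difference in the list, a log2 fold change of -0.88, at levels of 0.369 ± 0.177 against 0.695 ± 0.202 CPM and with a wide error (SE 0.42, adjusted p = 0.522).

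Mtpap, which adds poly(A) tails to mitochondrial mRNAs, was the member with an unadjusted p under 0.05 in the other direction. Its level was 424, 403, 364 and 467 CPM in mice a to d and 330, 338, 354, 304 and 410 CPM in mice 1 to 5. Mouse 5 lay inside the range of the Drp1_KO mice, and mice b and c inside that of the Drp1_WT mice. The means were 414 ± 42.7 (SD, n = 4) and 347 ± 39.4 CPM (SD, n = 5). With edgeR the log2 fold change was 0.26 (SE 0.11, p = 0.0421, adjusted p = 0.508). Without tubes 11 to 15 it was 0.15 (adjusted p = 0.906).

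**Figure D3:**
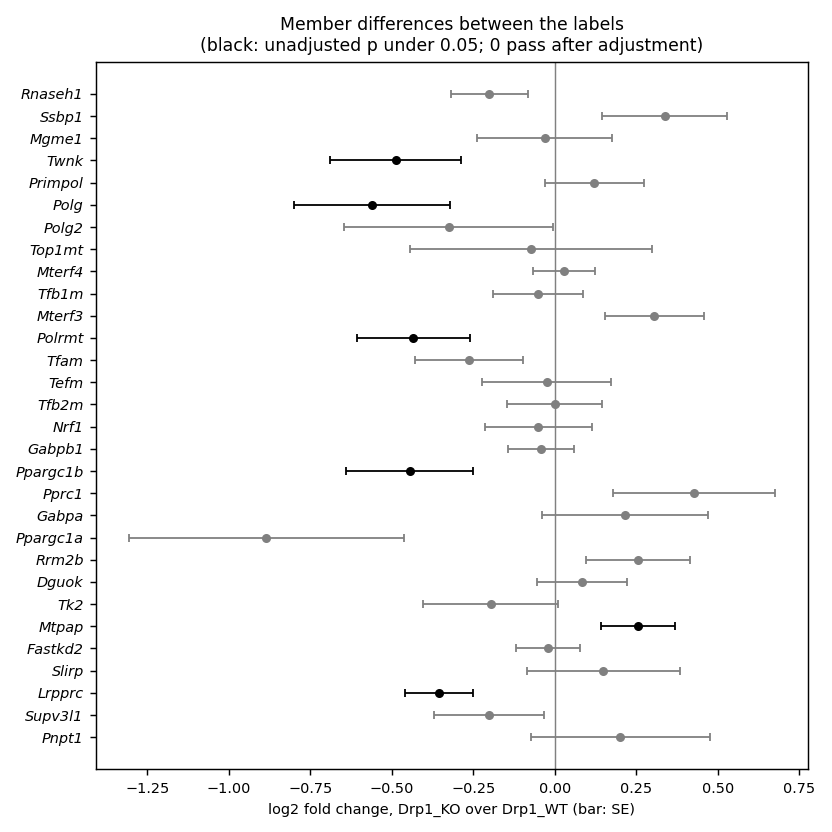
Log2 fold change of the 30 tested members, Drp1_KO over Drp1_WT, from edgeR on 4 against 5 mice; bars are standard errors and black marks the 6 members with an unadjusted p under 0.05. The 5 black points on the left are Twnk, Polg, Polrmt, Ppargc1b and Lrpprc, the black point on the right is Mtpap, and 0 members pass after adjustment.

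By role, the 8 replication genes had a median log2 fold change of -0.14, with 6 of 8 negative, and the 7 transcription genes a median of -0.03. The 6 tested regulators had a median of -0.05, the 3 nucleotide supply genes 0.08 and the 6 RNA handling genes 0.06. Intervals here were set from the SE as if mice were many, so they are narrower than true 95% intervals for so few mice. The narrowest were those of Mterf4, Fastkd2, an RNA-binding protein of mitochondrial RNA granules, and Gabpb1. Mterf4 stood at 307 ± 26.0 and 301 ± 13.6 CPM (log2 0.03, interval -0.16 to 0.22). Fastkd2 was at 78.2 ± 5.35 and 79.2 ± 4.00 CPM (log2 -0.02, interval -0.21 to 0.17), and Gabpb1 at 66.97 ± 2.75 and 68.9 ± 5.12 CPM (log2 -0.04, interval -0.24 to 0.15). The fold change nearest to 0 was that of Tfb2m, at 11.8 ± 0.850 and 11.8 ± 1.57 CPM (log2 -0.00, interval -0.29 to 0.29). Top1mt, a gene of few counts, had an interval of -0.80 to 0.65 on the log2 scale.

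Other genes of the same pathways, from lists compiled from knowledge of the pathway, were read beside the members. Of 28 other mitochondrial DNA replication, repair and nucleoid genes, 27 were tested, 0 passed and 0 had an unadjusted p under 0.05, with a median log2 fold change of -0.11. The smallest p in that list belonged to Lonp1, a protease that degrades Tfam, at 50.4 ± 8.70 against 67.3 ± 19.5 CPM (edgeR adjusted p = 0.514). Of 40 other mitochondrial RNA genes, 38 were tested and 0 passed, with 2 higher and 2 lower at an unadjusted p under 0.05 and a median of 0.03. Among them Mterf2, a relative of Mterf3 and Mterf4, stood at 2.84 ± 1.31 against 0.802 ± 0.402 CPM (log2 1.80, SE 0.40, edgeR p = 0.000603, adjusted p = 0.398). Of 26 other nuclear regulators of mitochondrial genes, 24 were tested and 0 passed, with 1 higher and 1 lower at an unadjusted p under 0.05 (Pparg, a lipid-sensing receptor, and Mef2d) and a median of -0.01.

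The members were next set against the share of counts from the 13 protein-coding genes of the mitochondrial genome. By mouse this share was 0.310%, 1.18%, 0.245% and 0.380% in mice a to d and 0.168%, 0.357%, 0.350%, 0.263% and 0.272% in mice 1 to 5. Mouse b stood apart through tube 10, and without that library its share was 0.318%, inside the range of the others. Only 9 of the 13 mitochondrial genes had enough counts to test between labels. Their median log2 fold change was 1.13, with 8 positive at an unadjusted p under 0.05, beside 4.89% of all genes, and 0 called. Without tube 10 their median was 0.29, with 3 positive at an unadjusted p under 0.05 (3.79% of all genes), and without it and tubes 11 to 15 and 29 it was 0.19, with 0.

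A slope of each nuclear gene on the log2 share, over the 9 mice with genotype as a term, called 0 members and 0 of 12803 genes (0.0%) in edgeR. At an unadjusted p under 0.05 it gave 1 member with a positive slope (Rrm2b, beside 4.77% of all genes) and 1 with a negative slope (Polrmt, beside 2.66%), out of 7.44% of all genes in either direction. DESeq2 called 1 member, Rrm2b, and 73 genes (0.48%), and limma-trend called 0 members and 287 genes (2.24%). The median slope of the 30 members was 0.01, beside -0.00 over all genes.

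Rrm2b encodes the small subunit of ribonucleotide reductase that supplies nucleotides for mitochondrial DNA in cells that do not divide. Its level was 110, 186, 118 and 136 CPM in mice a to d and 95.9, 134, 131, 115 and 101 CPM in mice 1 to 5. The highest value was in mouse b, which had the highest share, and the lowest in mouse 1, which had the lowest. Both values of mouse b came from tube 10, and without that library it stood at 124 CPM of Rrm2b with a share of 0.318%, highest in neither. The slope was 0.34 per doubling of the share (SE 0.07, edgeR p = 0.000788, adjusted p = 0.306). Without tube 10 it was 0.41 (adjusted p = 0.159), without the mice b and 1, farthest from the median share, 0.47 (adjusted p = 0.743), and without tubes 27 to 30 it was 0.35 and passed (adjusted p = 0.0399). In DESeq2 the adjusted p was 0.0124.

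The slope of Polrmt rested on tube 10. It was -0.32 per doubling of the share over all libraries (SE 0.12, edgeR p = 0.0196, adjusted p = 0.633) and 0.073 without that library (adjusted p = 0.882). Mgme1, a nuclease that trims mitochondrial DNA ends, had a slope of -0.27 (SE 0.14, edgeR p = 0.0809, adjusted p = 0.695), and Ppargc1b one of -0.21 (SE 0.13, adjusted p = 0.736).

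The same relation among oocytes of a mouse is given as a description, without a test. Levels of nuclear CPM and the share were each centred on the mean of the mouse, over the 35 oocytes without tube 10, so the points share mice, libraries and depth. Slirp had a Spearman correlation of 0.79 with the share, Ssbp1 of 0.75 and Dguok, a kinase that salvages purine deoxynucleosides in mitochondria, of 0.56. On the other side, Rnaseh1 and Tk2, the kinase that salvages pyrimidine deoxynucleosides, were each at -0.71, Nrf1 at -0.69, Polrmt at -0.57, Mgme1 at -0.56 and Supv3l1 at -0.53. Thus 9 of 31 members (29%) had a correlation of at least 0.5 in size, beside 19.2% of 13702 genes with the same measure. Over all 36 oocytes these were 11 members (35.5%) beside 22.6%, and the correlation of Slirp was 0.28 and that of Ssbp1 0.25; tube 10 combines the highest share with the lowest level of both.

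The share also went with library measures in the same 35 oocytes. Its correlation with the number of genes detected was -0.54, with the log2 total -0.26 and with the summed oocyte markers -0.31. Slirp had -0.68 with the number of genes detected, Ssbp1 -0.60 and Tk2 0.63. The part of these measures in the relation to the share was not tested. The genes that copy and transcribe the genome did not all go one way: 6 of the 8 replication genes and 5 of the 7 transcription genes had a negative correlation with the share. Negative values were common among all genes, with a median of -0.12 over 13702 genes and of -0.10 over the 31 members. Polrmt, Tfam and Twnk were at -0.57, -0.47 and -0.49 and Polg at -0.35, while Tfb2m, Tefm and Polg2 were at -0.06, -0.10 and 0.05, and Ssbp1 at 0.75 as given above.

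**Figure D4:**
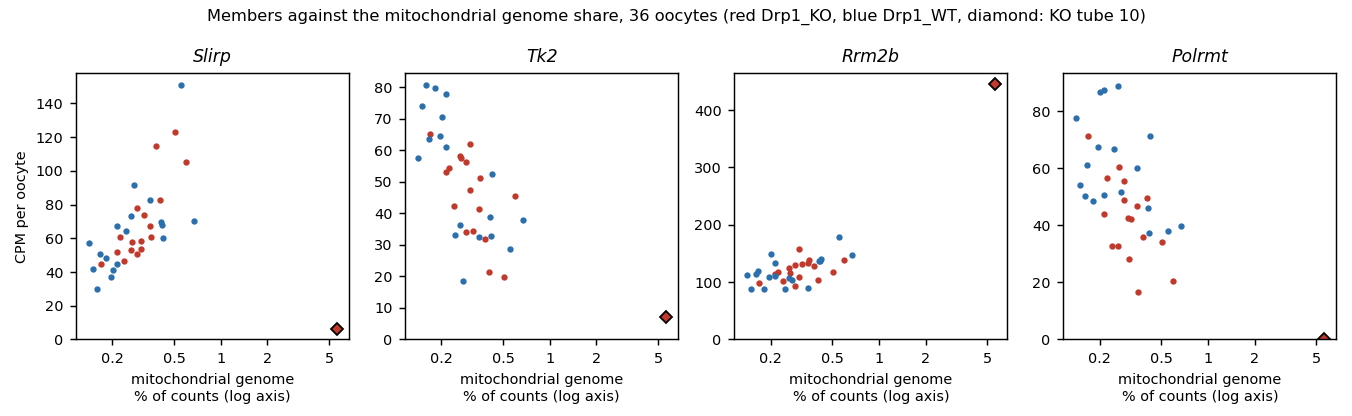
Level of Slirp, Tk2, Rrm2b and Polrmt in each of the 36 oocytes, in CPM, against the mitochondrial genome's percent of counts on a log axis; red is Drp1_KO, blue is Drp1_WT and the diamond is tube 10 of mouse b, at 5.61%. Among the other 35 oocytes, between 0.140% and 0.669%, Slirp is higher and Tk2 lower at higher shares.

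Levels of the members were also compared with each other across the 35 oocytes. Of the 465 pairs of members, the highest correlations of centred levels were between Mtpap and Fastkd2 (0.79), Ssbp1 and Slirp (0.78) and Tk2 and Rnaseh1 (0.72). Mtpap and Fastkd2 themselves had correlations of 0.09 and 0.05 with the share. The lowest were between Ssbp1 and Tk2 (-0.78) and between Tk2 and Slirp (-0.77). Lrpprc and Slirp, whose proteins form a complex, had a correlation of -0.42, and the highest partner of Slirp in these libraries was Ssbp1. Slirp and Ssbp1 each had a negative correlation with the number of genes detected, as given above. The part of that measure in their correlation was not tested. These too are descriptions over oocytes that share mice and depth.

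Tubes numbered 27 to 30, from mouse d and mouse 5, were compared with tubes 1 to 15 with genotype as a term, 2 mice against 7. The labels do not say what the tube numbers mean. In edgeR, 1 of 30 members passed (Ssbp1) beside 639 of 12812 genes (4.99%). At an unadjusted p under 0.05 there were 6 higher and 3 lower members, beside 25.9% of all genes. DESeq2 called 5 members (Ssbp1, Slirp, Dguok, Tfb1m and Tk2) and 1619 genes (15.3%), and limma-trend 0 members and 0 genes. At an unadjusted p under 0.05, limma-trend placed 4 members higher and 2 lower, beside 1346 and 1127 of 12812 genes. Without tube 10 of mouse b, edgeR called 3 members (Ssbp1, Dguok and Tk2) beside 9.68% of genes.

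Ssbp1, which coats single-stranded mitochondrial DNA, was higher in tubes 27 to 30. It stood at 91.1 CPM in mouse d and 77.3 CPM in mouse 5, and at 65.2, 66.6, 56.1, 40.5, 59.9, 55.2 and 43.01 CPM in mice a, b, c, 1, 2, 3 and 4. Both mice of tubes 27 to 30 lay above the other 7. In edgeR this was a log2 fold change of 0.59 (SE 0.15, edgeR p = 0.0012, adjusted p = 0.0385). The adjusted p rose to 0.0703 without mouse a, 0.0597 without mouse c, 0.334 without mouse d, 0.0683 without mouse 4 and 0.312 without mouse 5, and was 0.275 without tubes 11 to 15.

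Slirp, the partner of Lrpprc, stood at 100.2 CPM in mouse d and 79.4 CPM in mouse 5, against 59.9, 53, 58.4, 45.9, 83.2, 56.7 and 40.7 CPM in mice a, b, c, 1, 2, 3 and 4. Mouse 2 lay between the mice of tubes 27 to 30. The log2 fold change was 0.65 (SE 0.20, edgeR p = 0.00659, adjusted p = 0.0715). Dguok, at 84.4 CPM in mouse d and 87.4 CPM in mouse 5, was above the other 7 mice, which had 59.3 to 74.8 CPM (log2 0.38, SE 0.12, adjusted p = 0.0705). In mouse 5, tube 30 had 121 CPM of Dguok and tubes 27 to 29 had 68.7 to 77.6 CPM. Oocytes of mouse d had 70.2 to 79.6 CPM by library total, and the TMM factor of that mouse was 0.893.

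Tk2 went the other way, at 30.7 CPM in mouse d and 36.7 CPM in mouse 5, against 51.8, 44.8, 53.8, 70.7, 40.8, 49.9 and 61.7 CPM in mice a, b, c, 1, 2, 3 and 4. The mice of tubes 27 to 30 were the lowest. The log2 fold change was -0.65 (SE 0.18, edgeR p = 0.00296, adjusted p = 0.0536). Salvage of purine and of pyrimidine deoxynucleosides in mitochondria is divided between Dguok and Tk2, and these kinases had fold changes of opposite sign here.

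**Figure D5:**
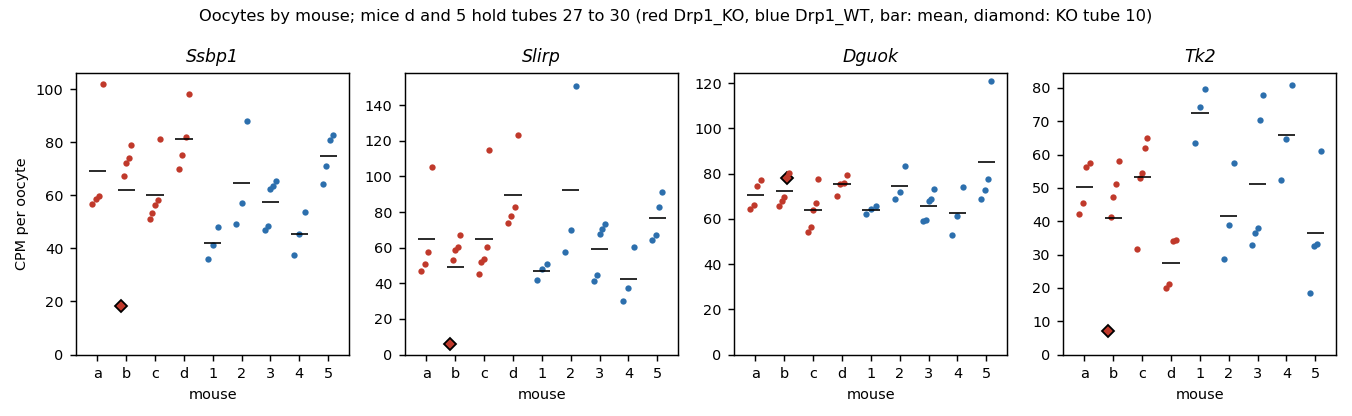
Level of Ssbp1, Slirp, Dguok and Tk2 in each oocyte, in CPM, by mouse; red is Drp1_KO, blue is Drp1_WT, bars are means of a mouse, the diamond is tube 10 of mouse b, and mice d and 5 hold tubes 27 to 30. Means of mice d and 5 are the highest for Ssbp1 and Dguok and the lowest for Tk2, while mouse 2 is as high for Slirp.

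Tube 10 of mouse b lay outside the range of the other 35 libraries in many genes, members and others alike. Of the 31 members, 15 (48.4%) were below every other library and 3 (9.68%) above. Of the 13713 genes detected in at least 18 oocytes, 39.4% were below and 13.97% above. Polrmt had 1 count there (0.204 CPM, against 16.5 to 88.9 CPM elsewhere), and Tefm, the elongation factor of Polrmt, had 0 counts, which allows up to 0.613 CPM, against 7.33 to 22.5 CPM. Slirp stood at 5.93 CPM (30.1 to 151 elsewhere), Rnaseh1 at 18.4 (60.6 to 130.5 elsewhere) and Mterf4 at 99.9 CPM (238 to 413 elsewhere). The 3 above all others were Rrm2b, at 447 CPM against at most 178, the exoribonuclease Pnpt1, at 40.9 against 35.5, and Primpol, a primase-polymerase, at 20.8 against 19.5 CPM. Mtpap, at 407 CPM, and Dguok, at 78.3 CPM, were inside the range of the other libraries. That library's low oocyte marker sum and high immune marker sum are given above, and their part in these values was not tested.

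The spread of the members was close to that of other genes. On the log2(CPM + 1) scale the SD within a mouse, averaged over mice, had a median of 0.353 over the 31 members, and the SD of the mouse means a median of 0.238. Over the 13713 genes detected in at least 18 oocytes these medians were 0.378 and 0.259. A mean of 3 to 5 oocytes varies less than single oocytes also where mice do not differ, and single oocytes carry more counting error, so these SDs do not show which source of spread is larger. Gabpa had the largest SD within mice, 0.710, followed by Polrmt at 0.585 and Polg at 0.556. Esrra, with a count in 1 oocyte, at 0.021, Dguok at 0.161 and Mtpap at 0.183 had the smallest. By label the medians were 0.411 for Drp1_KO mice and 0.342 for Drp1_WT mice, and without tube 10 the former was 0.292, so that the order of the labels turned on that library. Without it the SD of Polrmt was 0.413 and that of Gabpa 0.706.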

How the data were processed

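Single oocytes were lysed, cDNA was made with a SMARTer Ultra Low Input kit and libraries with Nextera XT, per the labels' protocols. The authors deposited raw counts, 21968 genes by 36 oocytes. Listed by the submitters' processing notes are the build GRCm38, Picard, Subread 1.5.2, featureCounts and STAR. For annotation release, strand setting and removal of PCR copies the sources used here say nothing, and there are no molecular identifiers, so limits cover counting error only. Of the gene IDs, 21876 matched GENCODE M21. Members and lists were chosen with earlier results of these data known. Prorp and Trmt61b found no match.

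Counts were summed per mouse, since oocytes of a mouse are not independent, and fitted over all genes with edgeR 4.0.16 (R 4.3.3; filterByExpr, TMM, robust quasi-likelihood test, Benjamini-Hochberg adjusted p of 0.05). CPM per mouse use TMM factors, and CPM per oocyte the library's total. Slopes used nuclear genes only. Each edgeR SE was derived from the fold change and the F statistic of its test. Lengths are the union of GENCODE exons.

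Full values are given for Tfam, Polg, Twnk and Polrmt, the 6 members highest and the 3 lowest per length, the 6 with the smallest p between labels, the 4 in each other fit, and the 3 with the largest and smallest spread. Other members are named for contrast. From each other list up to 3 genes with the smallest p could be named.

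Alternatives were DESeq2 1.42.0, limma 3.58.1 (trend, voom), other factors and filters, tube set as a term or left out, other lengths, other letters and each mouse left out. Those without KO tube 10, WT tubes 11 to 15 and 29, and with principal transcript length, were chosen after seeing the data. In simulated data with real means (genotype, 12840 genes) 10.4% of 67 simulated 1.5-fold changes, 43.3% of 67 at 2-fold and 100% of 66 at 4-fold passed in edgeR, with 0 false calls of 102, against 21 of 133 in DESeq2. For the slope false calls were 8 of 153 in edgeR and 25 of 183 in DESeq2. For the tube comparison they were 7 of 91 and 16 of 112, and edgeR found 2.99% of the 1.5-fold and 23.9% of the 2-fold changes. Detection of changes in genes of few counts, such as Polg, Polg2, Top1mt, Ppargc1a, Pprc1 and Gabpa, was not tested separately.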

Additional observations from a re-analysis of the deposited data

Results flagged for a closer look

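Of 62 sets of 4 or 5 mice examined (each member and the mitochondrial share, by label), 6 held a mouse far from the others, where chance gives about 1 in 20, or 3.1. Mouse 1, labelled Drp1_WT, gave 3 of them: Tfb2m, the initiation factor of mitochondrial transcription, was at 9.08 CPM against 12.1 to 13.1 CPM, Nrf1 at 149 CPM against 88.7 to 103 CPM, and Top1mt at 1.05 CPM against 0.524 to 0.665 CPM. Mouse d, labelled Drp1_KO and from tubes 27 to 30, gave 2: Mterf4 was at 346 CPM against 290 to 298 CPM, and Slirp at 100.2 CPM against 53 to 59.9 CPM. These levels use the TMM factor, which was 0.893 in mouse d. By library total, oocytes of mouse d had 276 to 391 CPM of Mterf4. The other Drp1_KO oocytes except tube 10 had 261 to 356 CPM, so the ranges overlapped. Mouse b had a mitochondrial share of 1.18% against 0.245% to 0.380%, and 0.318% without tube 10.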

How the results depend on the processing

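Between labels, the count of called members was 0 under every alternative run. The count of called genes was 37 with DESeq2, 10 with limma-voom, 4 without tubes 27 to 30 and 1 to 3 with each mouse left out. The log2 fold change of Tfam turned to 0.025 without tube 10 and tubes 11 to 15 and 29 (adjusted p = 0.990).

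For the mitochondrial share, called genes were 73 with DESeq2, 32 with no filter, 287 with limma-trend, 23 with no genotype term, 70 without tubes 27 to 30 and 0 to 3 with each mouse left out. Called members were 1 with DESeq2 and 1 without tubes 27 to 30, Rrm2b both times. The slope of Polrmt (log2 per doubling) turned to 0.073 without tube 10, to 0.017 without it and tubes 11 to 15 and 29, and ran from -0.42 to 0.10 with each mouse left out, 0.10 being without mouse b.

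For tubes 27 to 30, called genes were 1619 with DESeq2, 0 with limma-trend, 1239 without tube 10, 1 without tubes 11 to 15, 0 without all 3 sets and 1 to 1675 with each mouse left out. Called members were 5 with DESeq2, 2 with no filter, 2 with 5 CPM in 4 mice, 0 with limma-trend, 3 without tube 10, 0 without tubes 11 to 15, 0 without all 3 sets and 0 to 4 with each mouse left out. The 2 members called with no filter were of 31 tested, beside 480 genes called higher and 262 lower of 18433. The 2 with 5 CPM in 4 mice were of 24 tested, beside 522 and 303 of 8846 genes. The share of promoters with the arm of the NRF1 palindrome was 52%, against 0 with the whole. The causes were not tested.

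Few counts limit Polg, Polg2, Top1mt, Ppargc1a, Pprc1 and Gabpa, which were under 5 CPM. No paired analysis was possible because mice carry letters under one label and numbers under the other.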
